A study of Homo sapiens with 4 samples.

Results

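A set of 37 genes of glycolysis and of the response to low oxygen was read in T24, a long established human cell line from a bladder carcinoma. The genes were taken by name from a list drawn up with earlier results of these data known. All 37 were found once each among the 60623 genes of the deposited table, and all 37 were among the 14810 genes with enough counts to be tested. They were read as 17 glycolytic enzymes, with the makers of the glycolytic activator fructose-2,6-bisphosphate, and as 20 other hypoxia genes. The study has 2 libraries from cells given a scramble control, a sequence meant to have no target, and 2 libraries labelled as overexpressing miR-146a-5p, which the study's description puts down to a transfected mimic. All 4 libraries come from this 1 line. Dose, time after transfection and the oxygen level of the cultures are not named in the labels or the study's description. The labels do not name separate cultures for the libraries of a group, and p-values here therefore cover the spread between libraries alone, whether technical or not.

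As background, cells make the alpha subunits of hypoxia-inducible factor (HIF) all the time. With oxygen present, the EGLN prolyl hydroxylases mark these subunits, and the VHL protein then leads to their destruction. When oxygen is short the subunits escape this, pair with ARNT and bind short DNA sites near target genes. Those targets raise glucose uptake and glycolysis, keep pyruvate out of mitochondria, export acid and call in blood vessels. The control acts largely on the protein, so the level of a HIF alpha mRNA is not a measure of HIF activity. Many tumour cell lines also run glycolysis in full oxygen. MicroRNAs such as miR-146a-5p bind mRNAs, mostly in the 3′ UTR, through their seed, and lower their stability or translation.

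The mature miR-146a-5p is shown first because it is the agent that differs between the groups. The sequence is from RefSeq, at chr5:160485372-160485393 on the plus strand of GRCh38.p14. Capitals mark the seed, bases 2 to 8.

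hsa-miR-146a-5p: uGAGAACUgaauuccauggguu

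The seed pairs with AGTTCTC, or with AGTTCTCA where an A follows it. These letters stand in the 3′ UTR of 2 of the 37 genes (5.41%), against 12.8% of the 12345 tested genes with a 3′ UTR, in the longest protein-coding transcript of GENCODE release 29 on GRCh38. The 8-letter form is in 1 of the 37 genes, SLC2A3, at chr12:7919759-7919766 on the minus strand. This stretch is shown with its flanks, as the longer form of the match. Capitals mark the letters that pair with the seed and the A that follows them.

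SLC2A3: ttttggttcttAGTTCTCActgttccctct

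A match is a description of the letters and not a shown site. The groups of the other gene with a match overlapped.

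HIF binds the core letters ACGTG or GCGTG, read on either strand as CACGT or CACGC. RefSeq start site windows (GRCh38.p14), from 250 bases before to 50 bases after a gene's start, were available for 33 of the 37 genes, with 53 windows because some genes have several starts. The core was found in 39 of these 53 windows (73.6%), in 23 of 32 windows of glycolytic enzymes and in 16 of 21 windows of other hypoxia genes. Among all 35116 windows of that table the share was 48.4%. Those windows belong to 27305 genes, tested here or not, so these shares are not of like sets of genes. The windows of EGLN3, P4HA2 and PGAM1 held none, which says only that these letters are not in those windows. Shown here are stretches from 6 genes whose values did not overlap between groups, then from GAPDH and PGK1, whose values did. Capitals mark a single core in each stretch as it reads on the gene's strand. The stretches of GAPDH and PGK1 each hold another core that is not marked, and in GAPDH it overlaps the marked core.

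CA9 (chr9:35673898-35673927, plus strand): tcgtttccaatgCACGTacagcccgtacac
ENO2 (chr12:6914450-6914479, plus strand): acccgcgctcgtACGTGcgcctccgccggc
PFKFB4 (chr3:48556952-48556981, minus strand): tgagttgggcatGCGTGgtcggaggccggg
MXI1 (chr10:110210106-110210135, plus strand): gtggccaccagtCACGTaagcagagagccg
P4HA1 (chr10:73096935-73096964, minus strand): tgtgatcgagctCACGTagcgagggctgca
KDM3A (chr2:86441333-86441362, plus strand): ccgggaggctgtGCGTGtcttgtgagagct
GAPDH (chr12:6535172-6535201, plus strand): ctctgcggggtcACGTGtcgcagaggagcc
PGK1 (chrX:78104034-78104063, plus strand): gcggcgtgccggACGTGacaaacggaagcc

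Since 30 of the 33 genes held the core in a window, these stretches cannot set genes with separate groups apart from genes with overlapping groups.

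Levels below are CPM, estimated counts scaled to a common library size with TMM, a factor per library that sets most genes equal, and differences are log2 ratios of miR-146a-5p over scramble. Library totals were between 20290055 and 22774090 estimated counts. The scramble libraries were less alike than the miR-146a-5p libraries, with a correlation of log2 CPM over tested genes of 0.925 against 0.989. They differed more than 2-fold in 23.5% of tested genes and in 4 of the 37 members, HIF1A, EGLN3, BNIP3L and KDM3A. The 2 miR-146a-5p libraries differed that much in 2.71% of tested genes and in 0 members. Scramble 1 correlated with miR-146a-5p libraries 1 and 2 at 0.9791 and 0.9807, and scramble 2 at 0.9421 and 0.9355. Scramble 2 was thus the library least like the rest, and the reason was not tested. The values of both scramble libraries are therefore kept apart. Of 14 urothelial markers, KRT7, KRT8 and KRT18 carried nearly all of a summed level of 3795 and 5647 CPM with scramble and 4060 and 3680 CPM with miR-146a-5p, KRT5 and UPK3A were at 0 in all 4 libraries, and CDH1 had at most 2 counts. Of the 6 markers of that list with enough counts to be tested, 2 lay below both scramble libraries and 2 above (17.9% and 18.0% of all tested genes). KRT19 was at 31.9 and 42.6 CPM with scramble and at 15.9 and 14.4 CPM with miR-146a-5p, and GATA3, at 0.268 and 0.220 CPM against 0.514 and 1.22 CPM, was the marker above with the smallest p. Of 7 fibroblast markers none was at 0 in every library, and their sum was 3.35 and 3.996 CPM with scramble and 5.79 and 6.75 CPM with miR-146a-5p. Of 7 leukocyte markers, CD3E was at 0 in all libraries, and the sum of the list was 12.7 to 16.3 CPM with scramble and 13.1 to 17.3 CPM with miR-146a-5p, mostly CD68. The 6 endothelial markers summed to 0.179 to 0.703 CPM with scramble and 0.420 to 0.685 CPM with miR-146a-5p. All 4 libraries are labelled as the 1 line T24, so these levels were read as RNA of that line. The source of the fibroblast, leukocyte and endothelial marker counts was not tested.

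Most of the other hypoxia genes were higher in both miR-146a-5p libraries, and most glycolytic enzymes overlapped between groups. Of the 20 other hypoxia genes, 18 had a positive log2 ratio, with a median of 0.54 and a range from -0.36 to 2.22. Of the 17 glycolytic enzymes, 8 had a positive log2 ratio, with a median of -0.04 and a range from -0.38 to 0.73. Over all tested genes 49.9% were positive, with a median of -0.00. In 16 of the 20 other hypoxia genes both miR-146a-5p libraries lay above both scramble libraries, in 1 (SLC2A3) they lay below, and in 3 (HIF1A, EPAS1 and ADM) the groups overlapped. Among the glycolytic enzymes 5 lay above (PFKFB3, PFKFB4, ALDOC, ENO2 and LDHA), 2 lay below (HK1 and HK2) and 10 overlapped. Of all tested genes 18.0% lay above both and 17.9% below both, which makes 36.0% on one side.

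No member passed the test. By edgeR's quasi-likelihood test with Benjamini-Hochberg adjustment over all tested genes and a threshold of 0.05, 0 of the 37 were called, and so were 0 of 14810 genes (0%). The members' adjusted p-values were between 0.970 and 0.996. At an unadjusted p under 0.05 there were 7 members, PFKFB4, CA9, VEGFA, NDRG1, MXI1, P4HA1 and P4HA2, all higher, against 549 of all tested genes (3.71%). DESeq2 called 52 of 16044 genes (0.324%) and 0 members, with an adjusted p of 0.134 for CA9 and of 1.00 for the other 36. The limma-voom test called 0 members and 0 genes (0%). The authors' deposited table also calls 0 members among its 52 genes, with CA9 lowest at an adjusted p of 0.135.

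**Figure D1:**
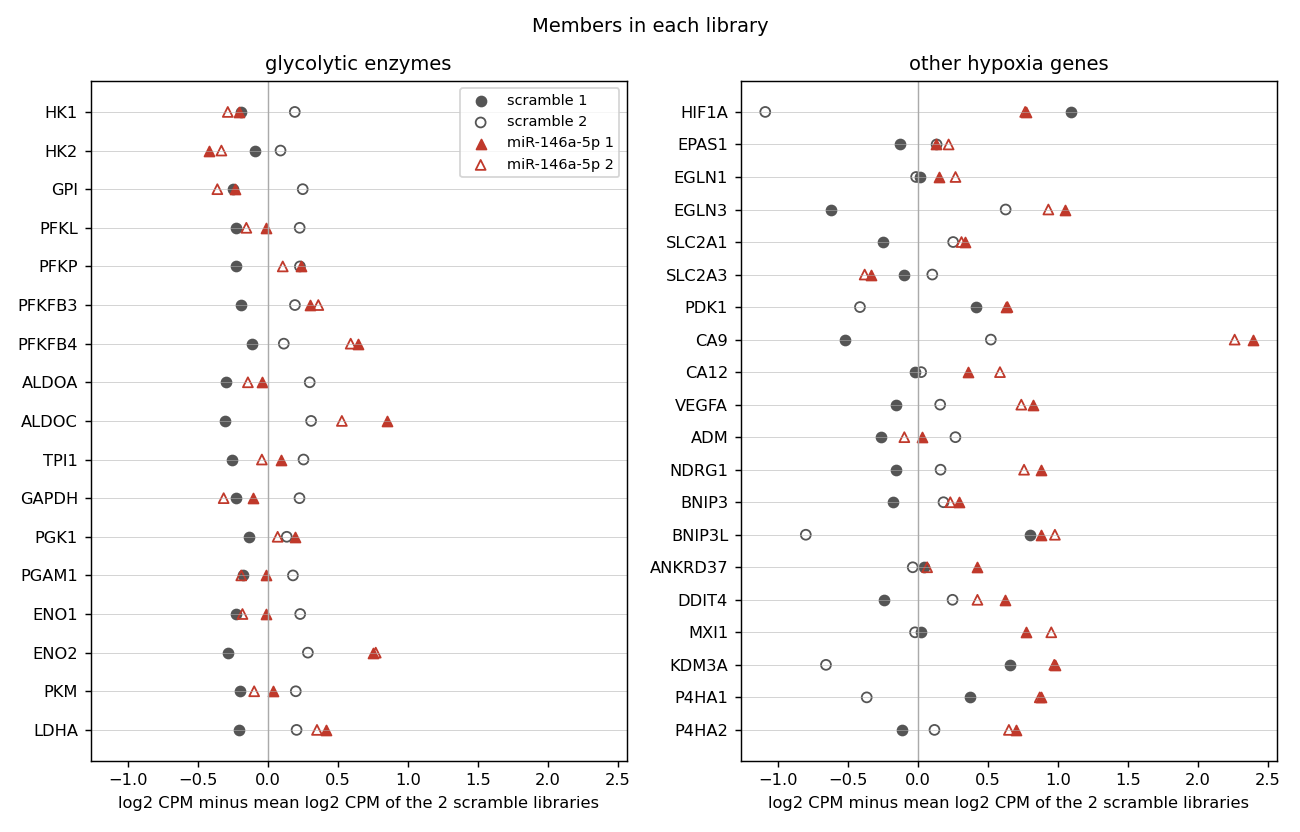
Level of each gene in each library, as log2 CPM minus the mean log2 CPM of the 2 scramble libraries (x axis), for 17 glycolytic enzymes (left) and 20 other hypoxia genes (right). Circles are scramble libraries and triangles miR-146a-5p libraries. In 16 genes on the right and 5 on the left both triangles lie to the right of both circles, and the circles of HIF1A, BNIP3L, KDM3A and EGLN3 lie far apart.

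The HIF alpha subunits showed no separation of the groups. HIF1A, the broadly expressed subunit, was at 295 and 65.0 CPM in the scramble libraries and at 236 and 236 CPM in the miR-146a-5p libraries. The level in scramble 1 was above and that in scramble 2 far below both miR-146a-5p libraries, and the log2 ratio was 0.39 ± 0.73 (SE, n = 2 libraries per group, as in all that follow). It was -0.33 against scramble 1 alone and 1.86 against scramble 2 alone. EPAS1, the HIF-2 alpha subunit, was at 80.4 and 96.6 CPM with scramble and at 96.3 and 102 CPM with miR-146a-5p, a log2 ratio of 0.17 ± 0.20, with overlapping groups, and it was 0.04 without scramble 1 and 0.32 without scramble 2.

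EGLN1 and EGLN3, hydroxylases that mark HIF alpha, were both higher in each miR-146a-5p library than in each scramble library. EGLN2, of the same family and not among the 37 genes, went the other way. Its mean was 62.9 CPM with scramble and 47.6 CPM with miR-146a-5p, a log2 ratio of -0.40. That ratio was -0.10 against scramble 1 and -0.66 against scramble 2. EGLN3, itself a HIF target in many cells, was at 0.849 and 2.02 CPM with scramble and at 2.71 and 2.50 CPM with miR-146a-5p, a log2 ratio of 0.86 ± 0.51. These levels rest on 19, 46, 58 and 51 counts, and the ratio was 0.37 without scramble 1 and 1.62 without scramble 2. EGLN1, the main hydroxylase in most cells, lay between 79.6 and 96.7 CPM in the 4 libraries, with a log2 ratio of 0.21. Of EGLN1 and EGLN3 together in TPM, the authors' length-scaled unit, EGLN3 made up 1.22% and 3.37% with scramble and 4.75% and 6.66% with miR-146a-5p. EGLN3 itself was at 0.43 and 0.9 TPM with scramble and at 1.76 and 2.51 TPM with miR-146a-5p. Its groups thus stood further apart in TPM than in CPM, so this share depends on the unit, and the reason was not tested.

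Carbonic anhydrase 9 had the largest ratio of the 37 genes. CA9, a membrane enzyme that helps export acid and is widely used as a marker of hypoxia, was at 0.492 and 1.01 CPM with scramble and at 3.69 and 3.38 CPM with miR-146a-5p. Both miR-146a-5p libraries stood well above both scramble libraries, at a mean 4.71-fold higher and a log2 ratio of 2.22 ± 0.45 (unadjusted p = 0.0069, edgeR's quasi-likelihood test). The counts behind it were low, 10.9 and 23 against 79 and 68.9. On the opposite strand ARHGEF39 covers 38.5% of the exon bases of CA9, and the sources used here do not say whether counting used strand. ARHGEF39 was at 11.2 and 17.5 CPM with scramble and at 16.9 and 15.9 CPM with miR-146a-5p, which overlap. CA12, the related membrane enzyme, was at 1.83 and 1.89 CPM against 2.38 and 2.79 CPM, a log2 ratio of 0.47.

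The secreted factors differed from each other. VEGFA, the growth factor that draws in blood vessels, was at 57.8 and 71.9 CPM with scramble and at 114 and 107 CPM with miR-146a-5p, a log2 ratio of 0.77 ± 0.21 (unadjusted p = 0.0191, edgeR's quasi-likelihood test). That is 1.71-fold higher by the means, and each miR-146a-5p library lay above each scramble library. ADM, the vasodilator peptide adrenomedullin, overlapped at 15.4 and 22.3 CPM against 18.9 and 17.3 CPM.

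Stress and growth regulators were higher in both miR-146a-5p libraries. NDRG1, a stress-responsive protein strongly induced by hypoxia in many cells, was at 68.8 and 85.9 CPM with scramble and at 141 and 130 CPM with miR-146a-5p, a log2 ratio of 0.81 ± 0.21. MXI1, an antagonist of MYC, was at 7.02 and 6.81 CPM with scramble and at 11.8 and 13.4 CPM with miR-146a-5p, a log2 ratio of 0.86 ± 0.22. Their unadjusted p-values were both 0.0159 (edgeR's quasi-likelihood test). The scramble libraries of MXI1 lay close together and its groups did not overlap. DDIT4, an inhibitor of mTORC1, was at 127 and 178 CPM against 231 and 202 CPM, a log2 ratio of 0.50 ± 0.24 that was 0.28 without scramble 1 and 0.78 without scramble 2. Its antisense neighbour DDIT4-AS1 covers 41.2% of its exon bases and had at most 0.0894 CPM.

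The oxygen-dependent enzymes of collagen and chromatin were also above both scramble libraries. P4HA1, the catalytic subunit of collagen prolyl hydroxylase, was at 127 and 76.6 CPM with scramble and at 182 and 180 CPM with miR-146a-5p, a log2 ratio of 0.83 ± 0.30 (unadjusted p = 0.0478, edgeR's quasi-likelihood test). P4HA2, its isozyme, was at 37.7 and 44.4 CPM against 66.4 and 64.1 CPM, a log2 ratio of 0.67 ± 0.20 (unadjusted p = 0.0274, same test). In P4HA1 scramble 2 was the lower scramble library and in P4HA2 the higher one, and both genes lay above either. Without scramble 1 the ratio of P4HA1 was 1.24, and without scramble 2 it was 0.52. KDM3A, a histone H3 lysine demethylase, was at 82.3 and 33.1 CPM with scramble and at 103 and 102 CPM with miR-146a-5p, a log2 ratio of 0.83 ± 0.48. Against scramble 1 alone the ratio of KDM3A was 0.32, and against scramble 2 alone it was 1.63.

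The mitophagy receptors and PDK1 were above both scramble libraries, by margins that differed between these 2 libraries. BNIP3L, which tags mitochondria for removal, was at 114 and 37.5 CPM with scramble and at 120 and 129 CPM with miR-146a-5p, a log2 ratio of 0.72 ± 0.57 that was 0.13 against scramble 1 and 1.73 against scramble 2. PDK1, the kinase that shuts off pyruvate dehydrogenase, was at 55.4 and 31.1 CPM against 64.3 and 64.6 CPM, a log2 ratio of 0.58 ± 0.34 that was 1.05 without scramble 1 and 0.23 without scramble 2. Both genes lay above scramble 1 by less than they lay above scramble 2. BNIP3 was at 175 and 226 CPM against 244 and 233 CPM, a log2 ratio of 0.25. ANKRD37, an ankyrin repeat protein known as a HIF target, was at 2.55 and 2.42 CPM against 3.32 and 2.59 CPM, with a log2 ratio of 0.25. On the opposite strand UFSP2 covers 35.2% of the exon bases of ANKRD37, and whether counting used strand is not given. UFSP2 was at 16.8 and 8.17 CPM with scramble and at 14.9 and 15.2 CPM with miR-146a-5p.

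Glucose transporters went in opposite directions. SLC2A1 (GLUT1), the general transporter, was at 165 and 234 CPM with scramble and at 248 and 244 CPM with miR-146a-5p, a log2 ratio of 0.30. SLC2A3 (GLUT3), a transporter of high affinity, was at 23.8 and 27.4 CPM against 20.2 and 19.6 CPM, a log2 ratio of -0.36. SLC2A3 made up 8.82% and 7.44% of both transporters' TPM with scramble and 6.45% and 5.22% with miR-146a-5p.

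Along glycolysis, ratios at the first steps lay near or below 0. The hexokinases HK1 and HK2, which trap glucose as its phosphate, lay below both scramble libraries, HK1 at 363 and 474 CPM against 360 and 340 CPM. HK2 was at 87.0 and 98.6 CPM against 69.4 and 73.6 CPM, a log2 ratio of -0.38 that was the lowest of the 37. GPI, PFKL and PFKP, the isomerase and phosphofructokinases that follow, overlapped, with log2 ratios of -0.32, -0.10 and 0.15.

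The bifunctional enzymes that set fructose-2,6-bisphosphate, the activator of phosphofructokinase, were above both scramble libraries. PFKFB4 was at 24.5 and 28.7 CPM with scramble and at 41.5 and 39.9 CPM with miR-146a-5p, a log2 ratio of 0.61 ± 0.20 (unadjusted p = 0.0369, edgeR's quasi-likelihood test). PFKFB3 was at 81.7 and 107 CPM against 115 and 120 CPM, a log2 ratio of 0.32. Neither gene's groups overlapped, and PFKFB4 made up 27.7% and 25.1% of their joint TPM with scramble and 33.0% and 30.4% with miR-146a-5p.

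The abundant enzymes of the middle and end of the pathway overlapped between groups, except LDHA. ALDOA, TPI1, GAPDH, PGAM1, ENO1 and PKM were each highest in scramble 2. Their log2 ratios were between 0.01 and 0.28 against scramble 1 and between -0.44 and -0.23 against scramble 2. GAPDH, often used as a reference gene, was at 5252 and 7182 CPM with scramble and at 5698 and 4935 CPM with miR-146a-5p, a log2 ratio of -0.23. PGK1, phosphoglycerate kinase, also overlapped, at 1261 and 1519 CPM against 1581 and 1453 CPM. LDHA, which turns pyruvate into lactate, lay above both, at 1733 and 2302 CPM against 2657 and 2547 CPM, with a log2 ratio of 0.37. GAPDH has 62 named pseudogenes, PGAM1 has 13 and BNIP3 has 39, and 18 of the 37 genes had counts that were not whole (tolerance 0.001), so reads of such genes may be split between copies.

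The minor isozymes ENO2 and ALDOC were higher in both miR-146a-5p libraries. ENO2, the enolase typical of neurons, was at 32.3 and 48.0 CPM with scramble and at 66.2 and 67.1 CPM with miR-146a-5p, a log2 ratio of 0.73 ± 0.27. ALDOC, the aldolase typical of brain, was at 7.64 and 11.7 CPM against 17.0 and 13.7 CPM, a log2 ratio of 0.66 ± 0.31. Without scramble 1 the ratios of ENO2 and ALDOC were 0.48 and 0.39, and without scramble 2 they were 1.06 and 1.02. Their groups did not overlap, while ENO1 and ALDOA had log2 ratios of -0.11 and -0.12. ENO2 made up 0.751% and 0.933% of enolase TPM with scramble and 1.32% and 1.51% with miR-146a-5p, and ALDOC made up 0.547% and 0.563% of aldolase TPM against 1.06% and 0.888%. Such a share compares transcripts within a library, so the library's scaling does not enter it. Without PFKFB3, PFKFB4, ALDOC and ENO2, a split made after the values were seen, the other 13 glycolytic enzymes had a median log2 ratio of -0.11.

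In total the glycolytic enzymes held 18509 and 22132 TPM with scramble and 20525 and 18940 TPM with miR-146a-5p, and these sums overlap. The other hypoxia genes held 762 and 679 TPM with scramble and 1019 and 1004 TPM with miR-146a-5p. This second sum was higher in both miR-146a-5p libraries, and it was small beside that of the enzymes in each library.

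**Figure D2:**
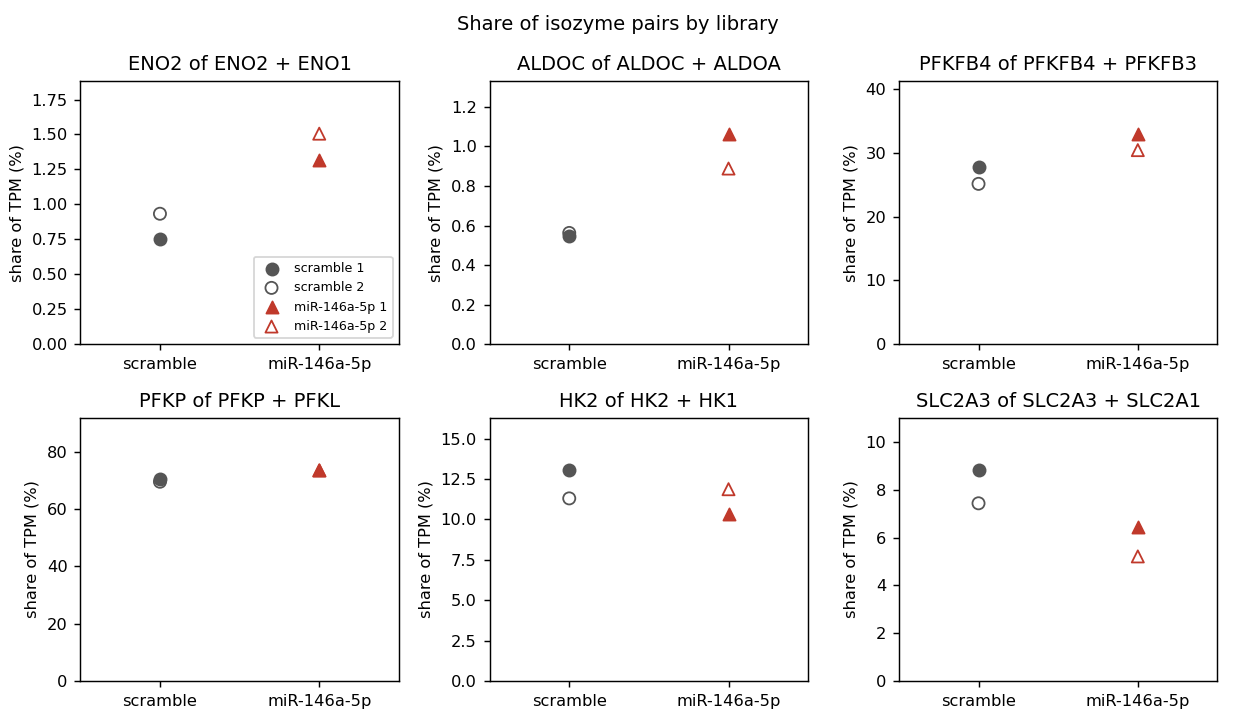
Share of the summed TPM of a pair of isozymes taken by the first named gene (y axis, percent), in each scramble library (circles) and miR-146a-5p library (triangles), 2 libraries per group. The shares of ENO2, ALDOC, PFKFB4 and PFKP lie higher with miR-146a-5p without overlap, that of SLC2A3 lies lower, and that of HK2 overlaps. Over all gene pairs read, drawn or not, 6 shares lay higher without overlap, 1 lay lower and 4 overlapped. Pairs not drawn include EPAS1 with HIF1A, BNIP3L with BNIP3 and P4HA2 with P4HA1, whose shares overlapped.

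The medians were also taken against each scramble library alone. The median log2 ratio of the other hypoxia genes was 0.46 against scramble 1 and 0.49 against scramble 2. That of the glycolytic enzymes was 0.21 against scramble 1 and -0.23 against scramble 2. The medians of all tested genes were -0.00 and -0.02. The glycolytic median thus had opposite signs against the 2 controls. When scramble 2 was left out of the fit, 8 members had the other sign (PFKL, ALDOA, GAPDH, PGAM1, ENO1, PKM, HIF1A and ADM), and without scramble 1 so did 3 (PFKP, TPI1 and PGK1).

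Fits that left out 1 scramble library called many genes, since the lone scramble library is then assumed to vary as little as the miR-146a-5p pair. Without scramble 1, edgeR called 27 members (54.9% of all genes were called), 15 higher (28.5%) and 12 lower (26.4%). Without scramble 2, it called 22 members (21.7% of all genes), 20 higher (10.1%) and 2 lower (11.7%), HK2 and HIF1A. In both fits 11 members were called higher, PFKFB4, ALDOC, ENO2, CA9, VEGFA, NDRG1, DDIT4, MXI1, KDM3A, P4HA1 and P4HA2, against 4.07% of genes. HK2 was called lower in both, against 2.74% of genes, and TPI1 and HIF1A were called in opposite directions, against 8.57% of genes. DESeq2 called 24 members without scramble 1 (38.1% of all genes) and 17 without scramble 2 (9.64%). Without 1 or the other miR-146a-5p library 0 members were called by edgeR (0.0776% and 0.0517% of all genes) or by DESeq2 (0.00807% and 0.00809%). The 2 fits without a scramble library share both miR-146a-5p libraries and are not independent of each other.

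**Figure D3:**
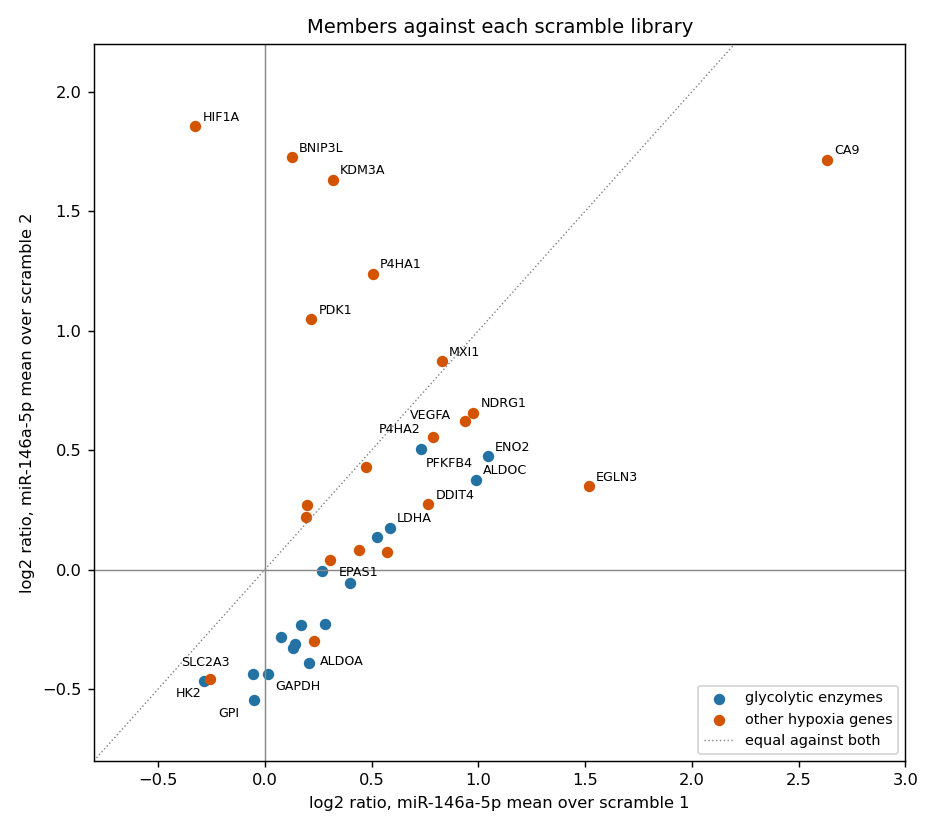
Log2 ratio of the mean miR-146a-5p level over scramble 1 (x axis) and over scramble 2 (y axis) for 17 glycolytic enzymes (blue) and 20 other hypoxia genes (orange), with the dotted line where both are equal. HIF1A lies at -0.33 and 1.86, CA9 lies right of 2 on the x axis, and all 17 glycolytic enzymes lie below the line.

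The difference between the scramble libraries followed base composition in these genes. Across the 37 genes the log2 ratio of scramble 2 over scramble 1 correlated with the GC content of the longest coding transcript with r = 0.73 (Spearman's rho 0.70), as a description over genes that share the same libraries. Over the 14679 tested genes with a GC value r was 0.67 (rho 0.77). The 9 members with a GC content under 45% (PGK1, LDHA, HIF1A, EGLN1, PDK1, BNIP3L, MXI1, KDM3A and P4HA1) had a median log2 ratio of scramble 2 over scramble 1 of -0.73, and 7 of them were lower in scramble 2. The other 28 had a median of 0.43, and 1 of them was lower. All 5451 tested genes under 45% GC had a median of -1.01, and the 9228 tested genes at or over 45% had 0.35. The median log2 ratio of miR-146a-5p over scramble was 0.23 in those 5451 genes and -0.11 in those 9228. It was 0.58 in the 9 members under 45% and 0.21 in the other 28. Median GC content was 56.8% in the glycolytic enzymes, 49.8% in the other hypoxia genes and 48.3% in all tested genes. With offsets for GC content and length in the fit the median log2 ratio was 0.42 for the other hypoxia genes and 0.06 for the glycolytic enzymes, and 0 members were called, as were 0 of 14679 genes (0%). Single ratios under these offsets were 0.06 for HIF1A, 0.18 for PDK1, 0.39 for BNIP3L and 0.46 for P4HA1. Those of KDM3A and MXI1 were 0.77 and 0.65, and each of these ratios was lower than without the offsets. The ratios were 0.83 for VEGFA, 0.92 for NDRG1, 0.70 for P4HA2, 0.84 for ENO2, 0.71 for PFKFB4 and 2.43 for CA9, each higher than without them.

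**Figure D4:**
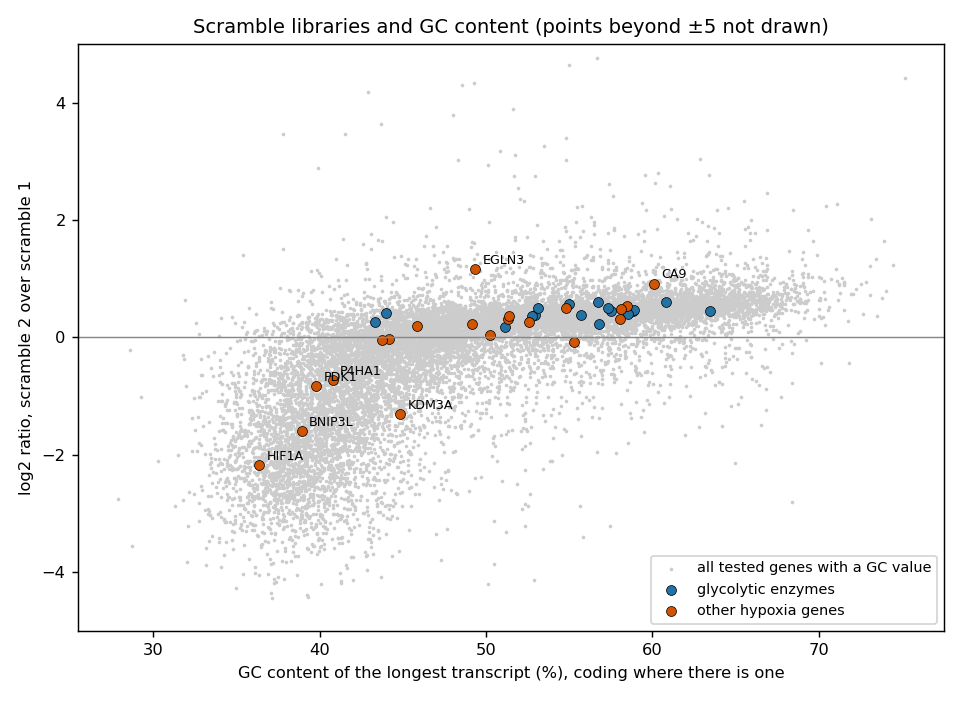
Log2 ratio of scramble 2 over scramble 1 (y axis) against GC content of the longest transcript (x axis, percent) for all tested genes with a GC value (grey), glycolytic enzymes (blue) and other hypoxia genes (orange). HIF1A, BNIP3L, KDM3A, PDK1 and P4HA1, all under 45% GC, lie below 0, and nearly all members of higher GC content lie above it.

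Further genes around these pathways were read from 7 lists, and edgeR called 0 genes in each, where it called 0% of all tested genes. In a list of 50 further hypoxia-responsive genes 46 were tested, 36 had a positive log2 ratio, 25 lay above both scramble libraries (18.0% of all tested genes did) and 4 lay below, with a median log2 ratio of 0.30. STC1, a secreted glycoprotein hormone of calcium and phosphate balance, rose by DESeq2 (adjusted p = 9.5e-04), from 5.36 and 3.51 CPM to 20.5 and 18.5 CPM, and did not pass by edgeR (adjusted p = 0.959). It was the 1 gene of that list that DESeq2 called. The pentose phosphate pathway, which branches off glycolysis to make NADPH, had 1 of 8 genes positive and a median log2 ratio of -0.28. Of its genes 5 lay below both scramble libraries (17.9% of all tested genes did). PGD, a dehydrogenase of this pathway, was at 176 and 214 CPM against 148 and 143 CPM.

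The list of other HIF subunits and oxygen-sensing regulators had 15 tested genes, with a median of -0.03. Of these 3 lay above and 4 below both scramble libraries (18.0% and 17.9% of all tested genes). SIAH2, a ubiquitin ligase that acts on EGLN hydroxylases, was at 21.7 and 36.8 CPM against 15.9 and 16.2 CPM, and CITED2, which competes with HIF for its coactivator, had a log2 ratio of -0.48. Both lay below either scramble library. Of 12 tested genes of pyruvate entry into mitochondria 5 lay above and 3 below (18.0% and 17.9% of all tested genes), with a median of 0.16. PDK3, a kinase of the same family as PDK1, was at 13.5 and 10.4 CPM against 18.2 and 19.9 CPM. PDHX, a component of the pyruvate dehydrogenase complex, was at 38.4 and 22.9 CPM against 44.5 and 39.3 CPM.

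Of 10 tested glycogen genes 3 lay above and 4 below (18.0% and 17.9% of all tested genes), with a median of 0.04. PPP1R3C, which targets a phosphatase to glycogen, was at 8.09 and 8.30 CPM with scramble and at 15.7 and 14.8 CPM with miR-146a-5p, and UGP2, which makes the glucose donor for glycogen, was at 97.1 and 38.8 CPM against 112 and 119 CPM. Of 7 tested further glycolytic isozymes 2 lay above and 1 below (18.0% and 17.9% of all tested genes), with a median of -0.06. ADPGK, a glucokinase that uses ADP, was at 53.3 and 63.5 CPM against 89.2 and 90.8 CPM, and PFKM, the muscle type phosphofructokinase, was at 112 and 127 CPM against 92.2 and 82.3 CPM. Of 10 tested genes of lactate and glucose transport 1 lay above and 0 below (18.0% and 17.9% of all tested genes), with a median of 0.10. That gene was SLC2A6, a transporter of the GLUT family, at 9.39 and 15.0 CPM against 17.9 and 17.6 CPM, while BSG, the partner protein of lactate transporters, overlapped at 283 and 430 CPM against 295 and 282 CPM.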

How the data were processed

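Per the labels' protocols, Trizol extraction was followed by a TruSeq RNA kit on 1 ug of total RNA. HISAT2 2.0.1, HTSeq 0.6.1, cutadapt 1.9.1, DESeq2 and the build hg19 are named, without roles, in the submitters' processing notes. The authors' deposited table holds an estimated count and a TPM per library, and the authors' fold ratio, log2 fold change, p-value and adjusted p-value.

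Estimated counts were rounded and filtered with filterByExpr (minimum count 10, minimum total 15). The main test was edgeR 4.0.16 (R 4.3.3) with TMM factors and group as the only term, two-sided, over all tested genes, and DESeq2 1.42.0 and limma-voom 3.58.1 were alternatives. Log2 CPM used a prior count of 2. TPM served for isozyme shares and for summed levels, and not for tests. The tests were checked on simulated data with the same spread in every library. That check does not cover groups of unequal spread such as those found here.

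The members and lists were chosen with earlier results of these data known. Values in full were given for members with a mean of at least 1 CPM, separate groups and a log2 ratio of at least 0.5 in size, and for the HIF alpha subunits. From each further list up to 4 genes past the threshold were named, or else up to 2 with the smallest p. Other members' values were printed to show whole pathways. GC content and 3′ UTRs came from GENCODE release 29 (GRCh38), matched by gene identifier, and all coordinates are of GRCh38. A few items read from the lists are not reported here.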

Additional observations from a re-analysis of the deposited data

How the results depend on the processing

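The counts of called genes depended on single libraries and on the tool. Over all genes, DESeq2 called 52 where edgeR called 0, and leaving out 1 library in turn gave 8 to 8421 genes with edgeR and 2 to 5349 with DESeq2, a set of fits added after the data were seen. Single values with DESeq2 were 5349 without scramble 1, 1107 without scramble 2 and 2 without either miR-146a-5p library. Members called were 0 to 27 in the edgeR fits, and with DESeq2 24 without scramble 1, 17 without scramble 2 and 0 without either miR-146a-5p library. In the other fits of all 4 libraries members called stayed at 0.

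The median log2 ratio of the glycolytic enzymes changed sign, to 0.062 with GC and length offsets, 0.063 with offsets and the replicate block together, and 0.21 with DESeq2 without scramble 2, and its range with edgeR over left-out libraries was -0.23 to 0.22, with 0.02 without miR-146a-5p replicate 2. The median of the other hypoxia genes kept its direction in every setting, at 0.65 with limma-voom, 0.65 with the replicate block, 0.42 with GC and length offsets, 0.42 with offsets and block together, 0.48 to 0.60 with edgeR and 0.47 to 0.56 with DESeq2 when 1 library was left out. HIF1A changed sign without scramble 2, to -0.31 with edgeR (adjusted p = 0.0014) and -0.32 with DESeq2, and its range with edgeR over left-out libraries was -0.31 to 1.86. The number of members above both scramble libraries was 21 under each scaling and 23 with GC and length offsets. The cause of these shifts was not tested.

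The labels give both groups the replicate numbers 1 and 2 but tie no batch or culture to a number. Deviations from the group means of same-numbered libraries correlated at -0.15 over 14810 genes. With the replicate number as a block edgeR called 5 genes and 0 members. Low counts limit the precision of CA9, CA12, EGLN3 and ANKRD37.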
